A study of Mus musculus with 7 samples.

Results

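The 10 genes described here write, copy, erase or protect DNA methylation: the methyltransferase genes Dnmt1, Dnmt3a, Dnmt3b and Dnmt3l, the maintenance partner Uhrf1, the dioxygenase genes Tet1, Tet2 and Tet3, and the protectors Zfp57 and Dppa3. They were chosen by name, with earlier results of these data known, and all 10 were found among the 18951 gene symbols of the deposited table. RNA came from ovulated C57BL/6 mouse oocytes, taken from females aged 4 weeks, as 3 pools of wild-type (WT) and 4 of Nlrp2-null genotype. The missing protein, NLRP2, belongs to the NLR family and is stored in the egg for the embryo. Each pool held about 150 oocytes of 3 to 4 animals of its genotype, recovered from the ampulla and freed of cumulus cells with hyaluronidase. The labels do not describe the null allele, and whether animals were littermates is not stated. Within these pools a lower number of oocytes and less RNA per oocyte cannot be told apart, because values were scaled between pools.

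DNA methylation is laid down on oocyte genomes during growth by DNMT3A together with DNMT3L, a relative that has no catalytic activity of its own and stimulates its partner. DNMT1 copies the mark to the new strand after replication, guided by UHRF1, which binds hemimethylated CpG sites. TET enzymes oxidize 5-methylcytosine, and TET3 from the egg acts on the paternal genome of the zygote. DPPA3 (also called STELLA or PGC7) shields the maternal genome from that oxidation and keeps UHRF1 out of the oocyte nucleus, while ZFP57, a KRAB zinc finger protein, holds methylation at imprinted regions by recruiting TRIM28. Ovulated oocytes are transcriptionally silent, and much of their stored mRNA is controlled through the length of its poly(A) tail.

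The ends of the messages are shown because tail length in the oocyte is set through a cytoplasmic polyadenylation element near the cleavage signal, and because the libraries were primed partly on poly(A). In the last 100 bases of the longest coding transcript annotated in GENCODE M21 (GRCm38), 8 of the 10 genes had the cleavage signal AATAAA, against 65.2% of 16547 genes. One of the elements TTTTAT or TTTTAAT stood there in 5 of the 10 (Dnmt1, Dnmt3a and all 3 Tet genes), against 18% of genes. In the 30-base windows of the Tet genes the signal and the element, both in capitals, touch or overlap:
Tet1: gggtggtataaAATAAATTTTATacttcta
Tet2: TTTTAATAAAatttatatttatttaatgca
Tet3: AATAAATTTTATatttattttttgcactca
The windows of the most abundant protectors hold the signal, in capitals, and no such element lies in their last 100 bases:
Zfp57: cccaccccacaaAATAAAtacaatttttaa
Dppa3: ccagaaatttgtAATAAAagcatttttgtt
These matches were sought on the transcript strand only and describe letters, not sites in use.

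Upstream sequences are shown for Tet2, the gene with the smallest p, for Tet3, its most abundant relative, and for the most distal annotated start of Dnmt1, since oocytes are known to use an alternative upstream exon of this gene. RefSeq promoters (GRCm38.p6) matched 9 of the 10 genes, with 18 start sites. Of these, 10 had at least 10 CpG in the 250 bases before the start, against 37.8% of 32851 promoters, whose median was 6. Each line gives 250 bases 5′ to 3′ on the gene's strand, with every CpG in capitals. All 3 genes lie on the minus strand, and the intervals are chr3:133544391-133544640 for Tet2, chr6:83441679-83441928 for Tet3 and chr9:20959889-20960138 for Dnmt1.
Tet2: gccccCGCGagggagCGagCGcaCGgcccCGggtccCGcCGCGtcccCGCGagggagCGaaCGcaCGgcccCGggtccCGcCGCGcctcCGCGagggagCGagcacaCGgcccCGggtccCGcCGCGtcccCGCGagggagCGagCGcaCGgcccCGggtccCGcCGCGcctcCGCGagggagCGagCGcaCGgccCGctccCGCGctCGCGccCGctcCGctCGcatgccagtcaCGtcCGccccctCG
Tet3: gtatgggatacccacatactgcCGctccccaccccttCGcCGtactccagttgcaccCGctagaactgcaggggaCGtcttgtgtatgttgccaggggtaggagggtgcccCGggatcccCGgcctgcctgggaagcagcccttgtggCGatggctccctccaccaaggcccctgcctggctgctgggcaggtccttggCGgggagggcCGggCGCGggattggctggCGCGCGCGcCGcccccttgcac
Dnmt1: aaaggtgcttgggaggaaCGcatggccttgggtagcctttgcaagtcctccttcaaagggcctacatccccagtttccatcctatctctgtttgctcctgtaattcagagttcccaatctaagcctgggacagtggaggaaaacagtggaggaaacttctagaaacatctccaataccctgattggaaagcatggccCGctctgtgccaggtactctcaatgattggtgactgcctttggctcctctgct
The Tet2 window holds 51 CpG (83.6% G + C), the Tet3 window 17 (69.6%) and the distal Dnmt1 window 2 (50.4%). The start of Dnmt1 at position 20952623 had 26 CpG. The motif GGGCGG, searched on both strands, was in 11 of the 18 windows and in 32.7% of all promoters, and TAATTG, the core of the element bound by the oocyte factor NOBOX, was in 0 of 18 and in 7.17% of all promoters. CANNTG, the E-box, was in 11 of 18 and 66.2%, and TATAAA in 1 of 18 (Zfp57) and 12.4%. The 18 windows are not all separate: those of Dnmt3a at chr12:3806730-3806979 and chr12:3806910-3807159 overlap. Some reach into annotated exons, and all 250 bases of the Zfp57 window at chr17:37003416-37003665 lie there.

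Between 71073973 and 96330083 reads stood behind each pool. Nlrp2 itself had 15527, 20130 and 16792 normalized counts in WT and 107, 8.19, 1.96 and 63.8 in null pools 1 to 4, low in every null pool as the labels have it. Oocyte markers were abundant in every pool: the normalized counts of 12 genes (among them Zp1 to Zp3, Gdf9, Bmp15 and Nlrp5) summed to between 821194 and 883177 in WT and between 858600 and 984022 in null pools. Markers of cumulus and granulosa cells (21 genes) summed to between 39498 and 49550 in WT and between 46819 and 60777 in null pools. Of 20 tested markers 17 were higher in null pools, against 50.7% of all genes. limma called 0, and 3 had an unadjusted p under 0.05, against 10.2% of all genes. Inhbb was among these 3 (mean 19.4 in WT and 340 in null pools), and DESeq2 called it (adjusted p = 6.6e-06). DESeq2 calls on the other markers were not counted. Amh, of this list, was listed at 0 in some pools. The 6 oviduct markers summed to between 383 and 539 and between 425 and 2255. Of 5 tested, 4 were higher in null pools (50.7% of all genes). limma called 0, and 2 had an unadjusted p under 0.05 (10.2% of all genes). Mean counts in WT and null pools were 87.8 and 303 for Krt8, 173 and 356 for Krt18, 165 and 296 for Epcam, and 16.4 and 68.8 for Ovgp1. Pax8 went the other way (26.2 and 0.768). So did Foxj1, which had a WT mean of only 2.22 and was at 0 in every null pool.

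None of the 10 genes passed the test over all genes. The test was limma on log2(normalized count + 1) over 15071 genes with a Benjamini-Hochberg adjusted p under 0.05, a rule that called 0.0664% of all genes. At an unadjusted p under 0.05 it was 1 of 10, Tet2, against 10.2% of all genes (5.28% higher and 4.93% lower in null pools), so the share of the 10 is at the background. Tet2 was also the only 1 of the 10 with groups that did not overlap, against 9.91% of all genes. Its null pools all lay above the WT pools, as in 4.74% of all genes, and 0 of the 10 had them all below (5.16% of all genes). edgeR on recovered reads called 0 of the 10 (0.0464% of all genes, with Tet2 alone at an unadjusted p under 0.05). A call was made by DESeq2 for 1 of the 10, Tet2 (1.33% of all genes). Fold changes were above 0 for 8 of the 10 with a median of 0.13 on the log2 scale. Over all genes tested 50.7% were above 0 and the median was 0.01. Scaling the pools to equal medians instead shifted every log2 fold change by the same -0.06, which left Tet2 at 0.46, Dnmt3l at 0.18, Tet1 at 0.14, Dppa3 at 0.098, Dnmt1 at 0.076, Zfp57 at 0.069, Tet3 at 0.052 and Uhrf1 at 0.0066, with Dnmt3b at -0.082 and Dnmt3a at -0.11.

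**Figure D1:**
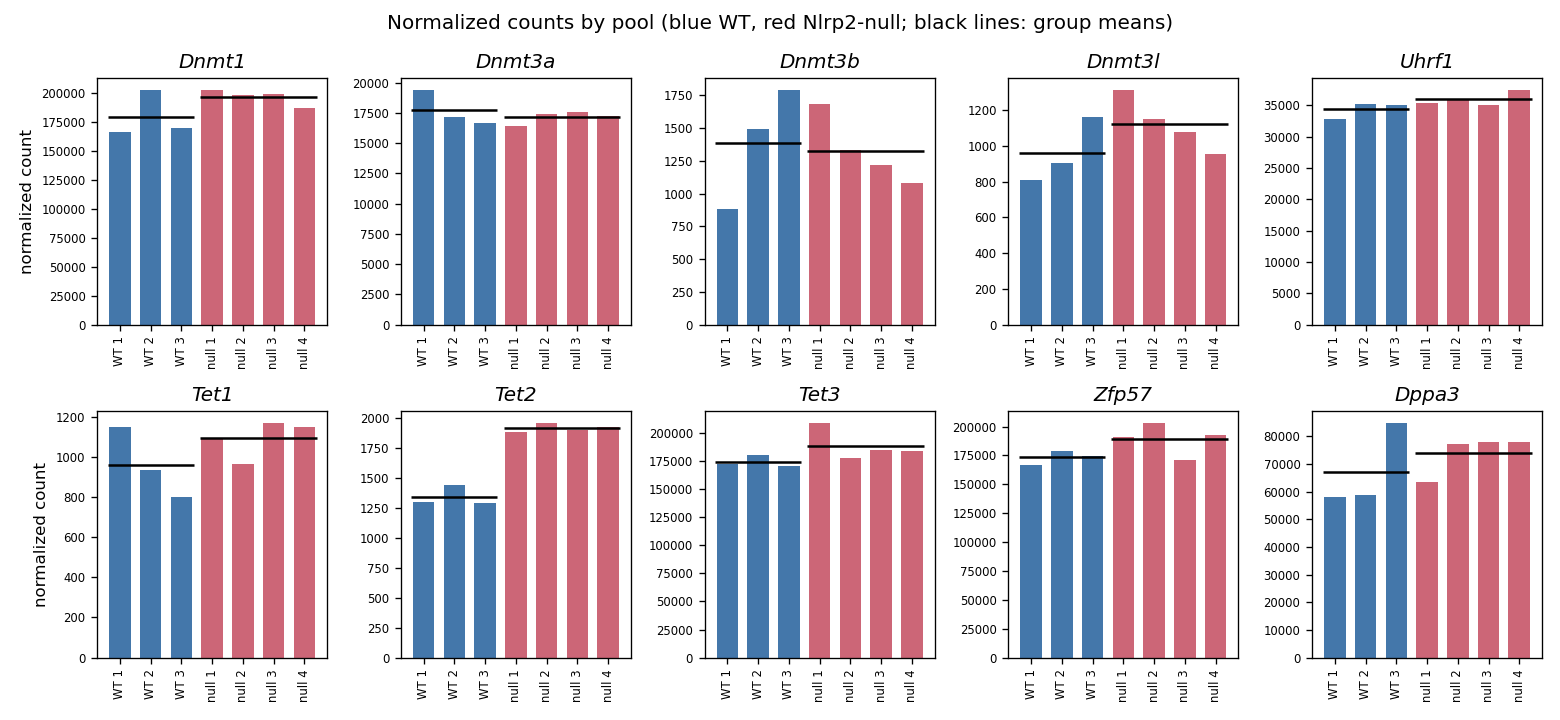
Bars give the normalized count (y axis, from 0) of each of the 10 genes in the 3 WT pools (blue) and the 4 Nlrp2-null pools (red), with group means as black lines. Tet2 alone has all null pools (1880 to 1957) above all WT pools (1289 to 1441).

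Among the writers, Dnmt1, the maintenance methyltransferase gene (chromosome 9, 20907209 to 20959888), had 166233, 202234 and 169796 normalized counts in WT and 201942, 197719, 198829 and 187040 in null pools. WT 2 was the highest pool and WT 1 and WT 3 lay below all null pools, so the groups overlapped. The fold was 1.10 (95% interval 0.979 to 1.23, limma adjusted p = 0.597), and its log2 value of 0.14 was 0.22 without WT 2 and 0.083 without WT 1. The value sums all transcripts of the gene, so the oocyte form and the somatic form were not told apart.

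Dnmt3a, which encodes the de novo enzyme of the growing oocyte (chromosome 12, 3806007 to 3914443), held 19377, 17161 and 16685 in WT and 16415, 17373, 17571 and 17239 in null pools. Its null pools all lay within or just below the WT range, and the fold of 0.968 had a narrow interval of 0.853 to 1.10 (limma adjusted p = 0.890). Dnmt3b, the de novo relative that is dispensable in oocytes (chromosome 2, 153649450 to 153687730), spread most among the 10. It held 884, 1494 and 1790 in WT and 1683, 1330, 1221 and 1081 in null pools, and the coefficient of variation was 33.3% over WT pools. The fold was 0.984 with an interval of 0.702 to 1.38 (limma adjusted p = 0.982), which spans differences in either direction.

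Dnmt3l, the cofactor gene (chromosome 10, 78041947 to 78063622), held 808, 906 and 1163 in WT and 1311, 1150, 1078 and 956 in null pools. The null mean was higher, but WT 3 exceeded 3 of the 4 null pools, and the fold of 1.18 (0.882 to 1.57) did not pass (limma adjusted p = 0.722). Its log2 fold change of 0.24 was 0.12 without WT 1, 0.38 without WT 3 and 0.46 with the cumulus marker mean in the model. Uhrf1, the partner that brings DNMT1 to hemimethylated DNA (chromosome 17, 56303321 to 56323486), was the steadiest of the group. It held 32854, 35294 and 35068 in WT and 35448, 36079, 35061 and 37430 in null pools, and its highest value was 1.14 times its lowest. The fold was 1.05 (0.937 to 1.17, limma adjusted p = 0.812), and its log2 value of 0.066 was 0.033 without WT 1.

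The erasers held the group's clearest difference. Tet2, an oxidizer of 5-methylcytosine that lacks the CpG-binding CXXC domain of its relatives (chromosome 3, 133463679 to 133545139), held 1297, 1441 and 1289 normalized counts in WT and 1880, 1957, 1899 and 1924 in null pools. The null pools lay close together (coefficient of variation 1.73%), all above the highest WT pool. The means were 1342 ± 85.4 (SD, n = 3) and 1915 ± 33.1 (SD, n = 4). Their ratio was 1.43 (95% interval 1.15 to 1.77), or 0.51 on the log2 scale (SE 0.146). The unadjusted p was 0.00288, and over all genes it did not pass in limma (adjusted p = 0.240) or edgeR (0.286), while DESeq2 called it (0.0381). Between 1231 and 1936 reads per pool stood behind these values. The log2 difference was 0.49 among the 4 pools of the lower range of library numbers and 0.57 among the 3 of the higher range. Adding the mean of the cumulus markers to the model gave 0.54 (adjusted p = 0.414 in limma), and without any 1 pool it stayed between 0.49 and 0.57.

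Tet3, the egg's main TET gene (chromosome 6, 83362373 to 83459084), held 172350, 179966 and 170264 in WT and 208429, 177748, 184169 and 183699 in null pools. Null 1 was highest, and null 2 fell inside the WT range. The fold was 1.08 (0.970 to 1.20, limma adjusted p = 0.647), and its log2 value of 0.11 was 0.062 without null 1. Tet1, which acts in germ cell precursors (chromosome 10, 62804570 to 62908996), held 1147, 932 and 801 in WT and 1095, 963, 1167 and 1146 in null pools, with a fold of 1.15 (0.866 to 1.52, limma adjusted p = 0.771). WT 1 stood among the null pools. Without WT 1 the log2 fold change of Tet1 went from 0.20 to 0.33, without WT 3 to 0.075, and to 0.017 once the cumulus marker mean entered the model.

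Both protectors had higher null means that did not pass. Zfp57 (chromosome 17, 37001163 to 37010635) held 166690, 178596 and 174566 in WT and 191306, 203010, 171140 and 193086 in null pools. Of the null pools 3 of 4 stood above every WT pool and null 3 lay within the WT range, and the fold was 1.09 (log2 interval -0.03 to 0.29, limma adjusted p = 0.598). Dppa3 (chromosome 6, 122626410 to 122630272) held 58062, 58925 and 84725 in WT and 63413, 77304, 77794 and 77889 in null pools. WT 3 was the highest pool of all, and the fold was 1.12 (0.938 to 1.33, limma adjusted p = 0.687). Its log2 fold change of 0.16 was 0.34 without WT 3 (limma adjusted p = 0.480), 0.063 without WT 1 and 0.074 without WT 2.

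**Figure D2:**
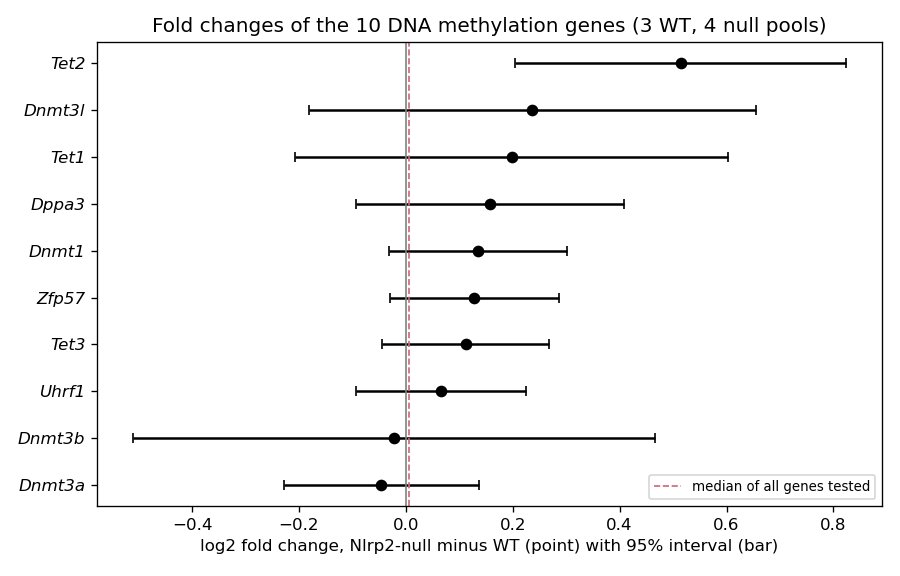
Points give the log2 fold change of each gene (x axis, Nlrp2-null minus WT, limma on 3 WT and 4 null pools) and bars its 95% interval; the dashed line is the median of all genes tested. Only the interval of Tet2 (0.20 to 0.82) lies off 0.

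Library numbers in the labels fall into a lower range (WT 1, WT 2, null 1, null 2) and a higher range (WT 3, null 3, null 4). In 5 of the 10 genes the log2 difference had opposite signs in the lower and the higher range: Dnmt3a (-0.11 and 0.06), Dnmt3b (0.38 and -0.64), Dnmt3l (0.52 and -0.20), Tet1 (-0.01 and 0.53) and Dppa3 (0.26 and -0.12). Dnmt1, Uhrf1, Tet2, Tet3 and Zfp57 were higher in null pools in both ranges. The higher range has 1 WT pool, so its differences all rest on WT 3. How many of all genes had opposite signs was not counted, so these signs are not shown to be particular to the 10 genes.

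**Figure D3:**
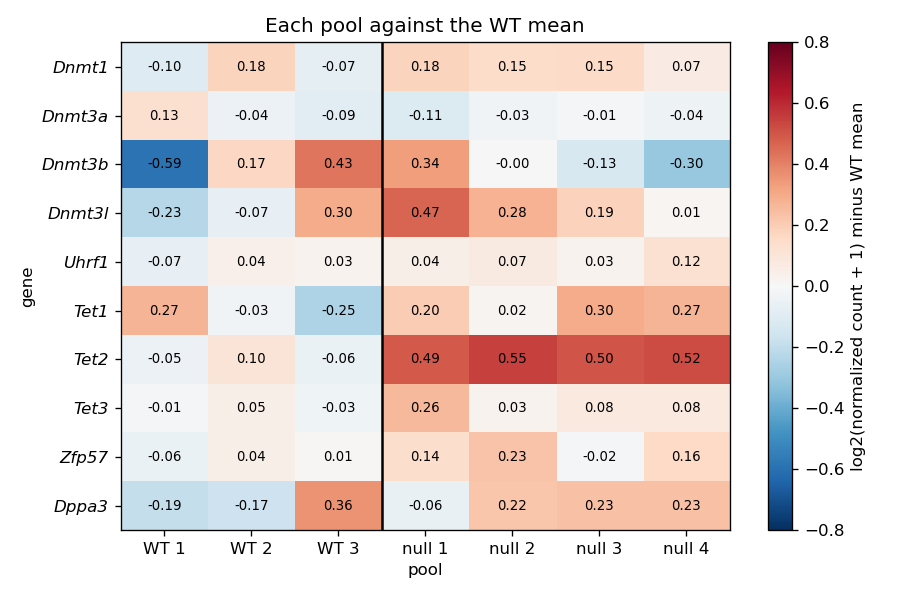
Each cell is a pool's log2(normalized count + 1) minus the WT mean of that gene, with pools on the x axis and genes on the y axis. Tet2 is between 0.49 and 0.55 in all 4 null pools, while Dnmt3b runs from -0.59 in WT 1 to 0.43 in WT 3.

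Levels between genes were set side by side as normalized counts per kilobase of annotated exon. Percentages of genes in this ranking refer to the mean over WT and null pools together, not to the WT mean. In the WT pools Dppa3 was highest at 75378 ± 16986 (SD, n = 3), above 99.9% of 14508 genes. Zfp57 followed at 45770 ± 1600, Dnmt1 at 24322 ± 2689, Tet3 at 10434 ± 306 and Uhrf1 at 8078 ± 317. Of these 5 messages Uhrf1, the lowest, still ranked above 97.8% of genes. Dnmt3a was at 1066 ± 86.3, and then came Dnmt3l at 321.0 ± 61.4 and Dnmt3b at 272 ± 90.5, whose WT ranges overlapped. Tet2 at 79.6 ± 5.06 and Tet1 at 62.1 ± 11.3 were lowest. By their means over WT and null pools together they ranked above 44.0% and 38.3% of genes. All other neighbours in this order had WT ranges that did not overlap. Among null pools the order was the same.

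Within the Tet family, Tet3 took 98.7% ± 0.100 (SD, n = 3) of the summed level per kilobase in WT and 98.4% ± 0.116 (SD, n = 4) in null pools. Tet2 took 0.752% ± 0.0260 and 0.994% ± 0.0811. Among the Dnmt genes Dnmt1 took 93.6% ± 0.744 and 94.1% ± 0.107, Dnmt3a 4.14% ± 0.641 and 3.65% ± 0.192, Dnmt3l 1.25% ± 0.286 and 1.33% ± 0.137, and Dnmt3b 1.05% ± 0.351 and 0.917% ± 0.152. The exon length is the union over all annotated transcripts, so genes whose oocyte form is shorter are understated.

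**Figure D4:**
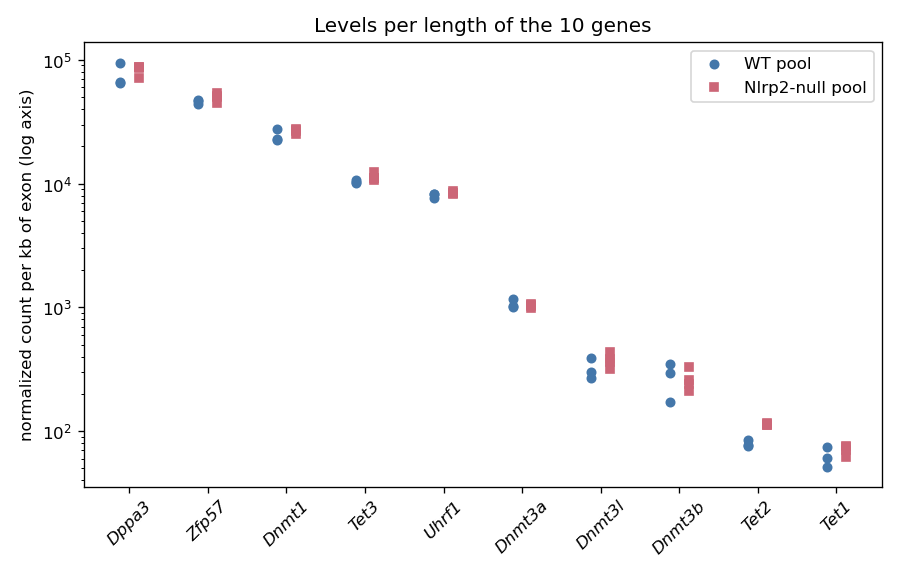
Points are normalized counts per kilobase of exon on a log axis for each WT pool (blue circles) and Nlrp2-null pool (red squares), with genes ordered by their WT mean. The order runs from Dppa3 (75378 in WT) to Tet1 (62.1), and for each gene except Tet2 the genotypes overlap.

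The 10 genes did not move as a block across pools. Over the 45 pairs of genes the median Pearson r of log2 values over the 7 pools was 0.31, with 29 pairs above 0. The highest were Uhrf1 with Zfp57 (0.77) and Dnmt3b with Dnmt3l (0.76), and the lowest were Dnmt3a with Dnmt3b (-0.88) and with Dnmt3l (-0.79). WT 1 had the highest Dnmt3a and the lowest Dnmt3b and Dnmt3l of the 7 pools, and null 1 the lowest Dnmt3a and the highest Dnmt3l. With the mean of the cumulus markers, which was 9.16, 8.29 and 8.46 on the log2 scale in WT and 8.90, 8.86, 9.43 and 9.90 in null pools, r was 0.80 for Tet1, 0.55 for Tet2, -0.67 for Dnmt3b and between -0.18 and 0.29 for the other 7. With Nlrp5, an oocyte gene, r was 0.80 for Dnmt3l, 0.78 for Zfp57, 0.71 for Tet3, 0.68 for Dnmt1, 0.64 for Dnmt3b, 0.58 for Tet2, 0.49 for Uhrf1, 0.05 for Dppa3, -0.15 for Tet1 and -0.73 for Dnmt3a. All these values rest on 7 pools that share scaling and genotype. With the marker mean in the model limma called 0 of the 10, and 7 of 15071 genes. In that fit Dnmt1 (log2 fold change 0.23), Zfp57 (0.18) and Tet2 had an unadjusted p under 0.05, 3 of 10 against 1235 of 15071 genes. Dnmt3b then had 0.41 in place of -0.02. How far cumulus RNA contributes to these values was not tested.

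Among 11102 genes with a mean of at least 100, those most like Tet2 over the 7 pools were Lox, the lysyl oxidase gene (r = 0.978), Lsm11, a component of the histone mRNA processing particle (0.977), and AW554918 (0.976). Null pools lay above WT pools in all 3 (4.74% of all genes), with log2 fold changes of 0.76, 0.55 and 0.18. The groups of Tet2 do not overlap, so this separation largely follows from the choice by likeness to Tet2. None of the 3 passed in limma (adjusted p = 0.144, 0.162 and 0.479), while DESeq2 called Lox (adjusted p = 0.0074) and Lsm11 (0.0082). Those most like Dppa3 were Cpsf6, a subunit of the cleavage factor of mRNA 3′ ends (r = 0.985), Gm4981 (0.981) and Sec23b, a COPII coat gene (0.967). In these 3 the genotypes overlapped, as for Dppa3. These are the highest values picked from all genes compared and are given as a description.

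Around the 10 genes, 39 further genes of the pathway were examined, and limma called 0 of them over all genes. At an unadjusted p under 0.05 there were 4 of 39, of which 3 were higher and 1 was lower in null pools, a share near the 10.2% of all genes. edgeR also called 0 (4 unadjusted), and DESeq2 called Kdm1b only, 1 of 39 where it called 1.33% of all genes. Their median log2 fold change was 0.01, as over all genes tested. Kdm1b, the histone H3 lysine 4 demethylase gene that opens imprinted regions to de novo methylation, held 15294, 17938 and 18373 in WT and 21249, 23445, 27626 and 23602 in null pools, a fold of 1.39 (1.20 to 1.61, limma adjusted p = 0.1004, DESeq2 0.0016). The study's title names it, so it was no independent choice, and it overlaps Dek on the opposite strand.

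Among partners of the writers (Uhrf2, Usp7, Hells, Cdca7 and Pcna) 1 of 5 had an unadjusted p under 0.05, as had 10.2% of all genes. Uhrf2, the UHRF1 relative, was low, with 114, 191 and 170 normalized counts in WT and 167, 368, 709 and 540 in null pools. Null 1 fell inside the WT range, and the fold of 2.52 (1.30 to 4.87) did not pass (limma adjusted p = 0.327, DESeq2 0.0555). Among 8 base excision and TET-linked genes the highest-ranked was Ogt, the O-GlcNAc transferase that binds TET proteins. It held 5577, 6488 and 5999 in WT and 7348, 7751, 8243 and 6312 in null pools, and null 4 fell inside the WT range (log2 fold change 0.30, SE 0.113, limma adjusted p = 0.390).

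Of 9 other protector genes none had an unadjusted p under 0.05. Null pools all lay above WT pools in 1 of the 9, Arid4a (4.74% of all genes). They all lay below in 1, Trim28 (5.16% of all genes). Arid4a, a retinoblastoma-binding factor linked to imprinting, had a log2 fold change of 0.17 (SE 0.0877). Rif1, which binds chromatin and times replication, had -0.14 (SE 0.0743), and Zfp445, the zinc finger partner of ZFP57 in imprint maintenance, had -0.22 (SE 0.135). Of 7 readers 1 had an unadjusted p under 0.05 (10.2% of all genes), Zbtb33, which encodes the methyl-CpG binding protein Kaiso. It held 7879, 8802 and 7335 in WT and 6920, 6013, 6562 and 6845 in null pools, all below every WT pool, a fold of 0.824 (0.706 to 0.961) that did not pass (limma adjusted p = 0.379). Zbtb33 overlaps Tmem255a on the opposite strand. Mbd1, another methyl-CpG binder, had -0.41 (SE 0.242). The 4 genes of methyl donor supply lay between 0.005 and 0.10, and the other 5 histone modifiers beside Kdm1b were each between -0.07 and 0.05.

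**Figure D5:**
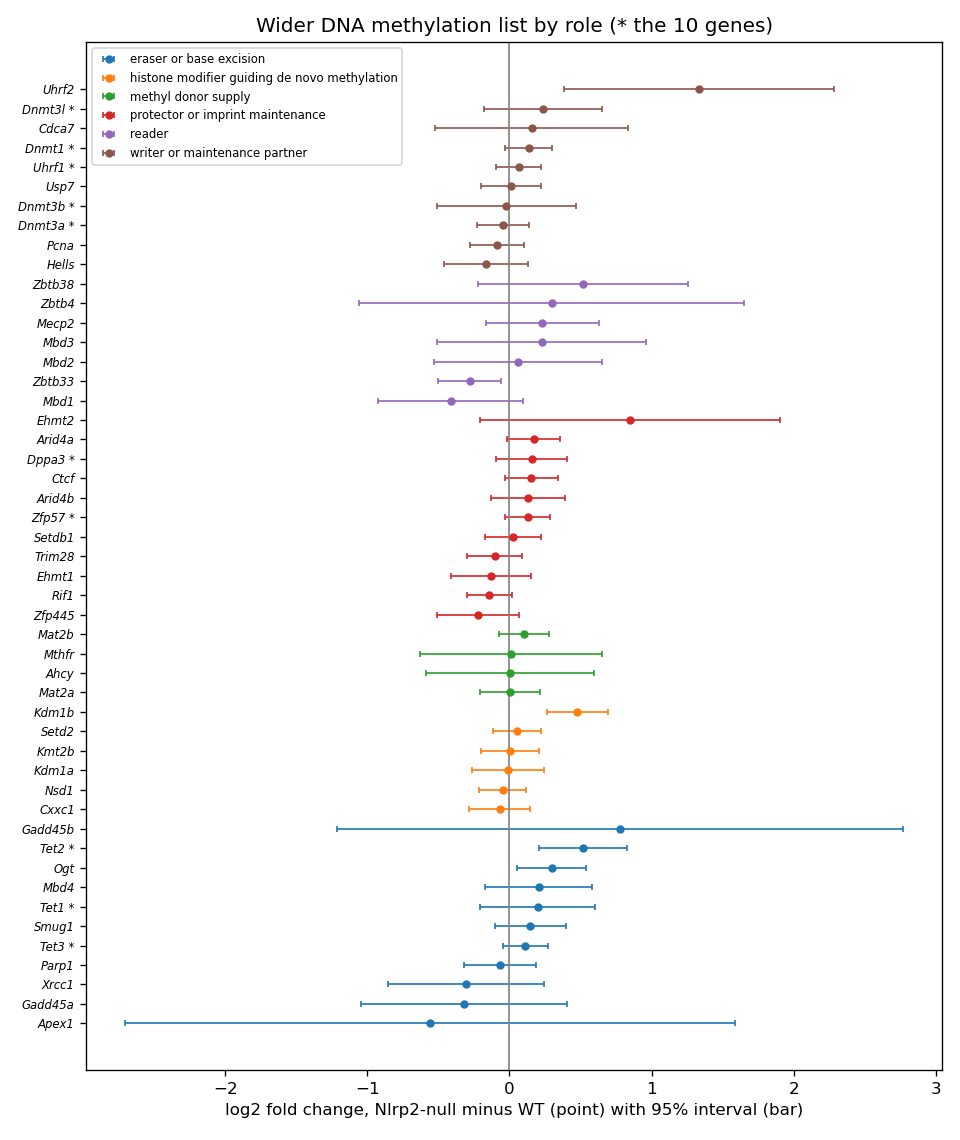
Points give log2 fold changes (x axis, Nlrp2-null minus WT) with 95% intervals for 49 genes of the pathway, coloured by role, with an asterisk on the 10 genes. The intervals of Uhrf2, Kdm1b, Tet2, Ogt and Zbtb33 lie off 0, and the other 44 include it.

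Some values can hold reads of another gene, because the sources used here do not say whether counting used strand. On the opposite strand, Dnmt3a overlaps Dnmt3aos over 133 exonic bases (0.799% of its exons), Dnmt3l overlaps Aire over 67 (2.24%) and Tet2 overlaps Gm42567 over 43 (0.255%). Uhrf1 has a copy, Gm5648, with 98.3% identity over 1590 bases, and Dppa3 a pseudogene on chromosome X, Dppa3-ps, with 98.2% identity over 451 bases. The levels of Uhrf1 and Dppa3 are therefore uncertain to the extent that reads were shared.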

How the data were processed

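Libraries of amplified cDNA (oligo d(T) and random primers) were sequenced from 3 WT and 4 Nlrp2-null oocyte pools. For each symbol and pool the authors deposited a signal, a count divided by a size factor, per the file headers and names. Every value (100%) was a whole multiple of its pool's step within 0.01, so whole reads were recovered. Aligners named in the submitters' processing notes are STAR 2.5.0a and TopHat2 2.0.9, counters are featureCounts 1.5.0-p1 and HTSeq, and DESeq2 1.22.2, DESeq and HOMER follow, on builds mm10 and GRCm38. The sources do not say which of them made this table. A second deposited table of assembled transcripts holds no transcript of these genes by Ensembl identifier and was not used here.

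limma 3.58.1 (R 4.3.3, variance trend, 5 residual and 10.9 prior degrees of freedom) tested log2(normalized count + 1), null minus WT, over 15071 genes with a mean of at least 10; fold changes on this scale understate low genes. edgeR 4.0.16 and DESeq2 1.42.0 on recovered reads, other scalings, filters, covariates and left-out pools were alternatives. For DESeq2, 2080 adjusted p values stayed NA. The fits were tested on simulated data. Only a single set was drawn, with the spread between pools taken from edgeR's own estimates. In it DESeq2 made a larger share of false calls than limma or edgeR, an order that need not hold for the real pools. There limma, edgeR and DESeq2 each missed most of the smallest changes simulated, which were slightly larger than that seen for Tet2. The changed genes were drawn from all levels, not from the level of Tet2. No pair of pools within a group agreed within sampling noise (their chi-square was 36.6 or more per degree of freedom). The limma p values and intervals rest on the spread between pools, which limma draws toward that of other genes of like level. For a single gene such as Tet2 they therefore do not measure its own spread alone. They cover no other source of error, and amplified reads are not independent molecules.

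The members and lists were chosen with earlier results of these data known. Named beside the members are Nlrp2, the 4 pathway genes with the smallest p in each direction (Kdm1b among them), and the 3 genes most like Tet2 and Dppa3. Trim28 is named because its groups did not overlap. The list as first written also held Tdg, which was not analysed here and is not among the 49 genes counted. BLAST+ 2.17.0 was used to find near-identical copies (95% identity over at least 200 bases).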

Additional observations from a re-analysis of the deposited data

Results flagged for a closer look

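Among 19 genes whose 4 null pools were checked for a value far from the others, 2 met that mark, where chance flags about 1 in 20. For Dppa3, null 1 (63413 normalized counts) lay below the other null pools (77304 to 77889), with a gap of 0.960 of the group's range against a critical value of 0.829. For Zfp445, null 3 (5500) lay above the others (3987 to 4058), with a gap of 0.953 of the range.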

How the results depend on the processing

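Over 19 alternative fits, counts of called members stayed at 0 except with DESeq2 (1, Tet2, log2 fold change 0.51, adjusted p = 0.0381). Calls on the pathway list stayed at 0 except with pool quality weights (1) and DESeq2 (2). Calls over all genes went from 10 to 6 with equal medians, 68 with pool quality weights, 200 with DESeq2 and 0 without both null 3 and null 4 (1080 with an unadjusted p under 0.05; edgeR and DESeq2 were not run on these pools), and to between 2 (without null 3) and 16 (without null 1) when each pool was left out. Other counts past 1.5 times were 4 without WT 2, 5 without WT 3 and 4 without null 4. Equal medians moved the median of all genes by -0.06, and the log2 fold changes of Dnmt1, Uhrf1, Tet3, Zfp57 and Dppa3 became over 1.5 times smaller. Deviations of WT and null pools with the same replicate number correlated at -0.16, 0.02 and -0.01 for numbers 1 to 3. For unlike numbers the correlations ran from -0.10 to 0.17. With so few pools these values cannot show whether the numbers pair the pools. With the numbers as a block, and null 4 left out, 1 gene was called over all genes, 0 members, and Dnmt3b had a log2 fold change of 0.070.

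The sign of 8 members held in all 19 fits. Dnmt3a went from -0.046 to 0.019 without WT 1, and its lowest value with a pool left out was -0.089. Dnmt3b went from -0.02 to 0.41 with the cumulus marker mean in the model and to 0.17 without both null 3 and null 4, and ran from -0.32 (without WT 1) to 0.19 (without WT 3) when single pools were left out, with 0.060 without WT 2, 0.011 without null 3 and 0.070 without null 4. The cause of these changes was not tested. The log2 fold change of Tet2 stayed between 0.46 and 0.57, with adjusted p from 0.0381 to 0.576.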
